A study of Mus musculus with 4 samples.

Results

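The genes described here encode the non-collagen matrix of connective tissue and the receptors of the fibroblasts that make it: glycoproteins, proteoglycans, elastic fibre proteins, cross-linking enzymes, a pair of platelet-derived growth factor receptors, podoplanin and gelsolin. They were chosen by name, with earlier results of these data known, and number 34 of the 48526 gene identifiers in the deposited table. All 34 were found there and passed the minimum for testing. RNA was sequenced from lamina propria mononuclear cells (LPMCs), the leukocyte-rich fraction from beneath the epithelium of the gut, taken from mice after transfer of CD4 T cells. The donor cells of 2 samples were wild type (wt in the labels), with pronounced colitis. The donor cells of the other 2 were a Hobit x Blimp DKO, which lack Hobit and Blimp-1, transcriptional repressors that act in tissue-resident lymphocytes, and the colitis was mild. The groups are called wild type and DKO below, after the transferred cells, since the genotype is not that of every cell in a sample. The strain and age of donors and recipients, the deleted parts of the genes and any pooling of animals are not given in the labels. The question was how LPMC samples differ when the transferred cells lack the regulators of residency. Donor genotype and severity of colitis go together in every sample, so their effects cannot be told apart.

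Fibroblasts lay down a matrix of collagen fibrils, and the proteins considered here decide how those fibrils are built. Small leucine-rich proteoglycans coat fibrils and set their width, fibrillins and fibulins scaffold elastin into elastic fibres, and lysyl oxidases cross-link collagen and elastin. Adhesive and matricellular glycoproteins such as fibronectin, periostin, tenascin and the thrombospondins link cells to this network, are made in larger amounts during wound repair, and are in part also made by macrophages and platelets.

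Values are regularized log2 expression (rlog), in which a step of 1 is a doubling and genes with few reads are pulled towards their mean. Read depth is unknown for all 4 samples, whose median rlog over the 13528 tested genes ran from 8.33 to 8.35. The LPMC label was checked against markers. Leukocyte genes were high (wild type had 14.24 ± 0.0297 for Ptprc, SD, n = 2, and DKO 14.11 ± 0.126). Genes of epithelium were present too (Epcam at 10.95 ± 0.148 and 10.76 ± 0.0183). So were genes of stromal cells, in wild type and DKO in turn. Col3a1 was at 13.13 ± 0.0888 and 14.05 ± 0.203, and Myh11 at 10.28 ± 0.676 and 12.04 ± 0.276. The B cell genes Cd79a and Ms4a1 were below 0 in every sample.

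Of the 34 genes 33 rose in DKO and 1, Thbs1, fell, in limma at an adjusted p under 0.05. Over all tested genes 9.92% rose and 4.85% fell. The median log2 fold change of the 34 was 0.89, against -0.022 over all tested genes, and 32 of the 34 rose by at least 0.5, which 7.32% of tested genes did. Both DKO samples were above both wild-type samples in 33 genes, against 25.0% of tested genes, and both were below in 1, against 30.3%. Rises ran from 0.38 for Lox to 1.73 for Postn, and 10 reached 1, against 1.81% of tested genes. With no filter on low values, a fit over 25186 genes, 10 of the 34 rose and 0 fell at an adjusted p under 0.05 (32 and 1 at an unadjusted p under 0.05 in limma). Over all 25186 genes of that fit 181 rose and 25 fell at the same adjusted threshold. In these bulk samples more cells of a type and more RNA per cell cannot be told apart. The share of stromal cells carried into each preparation was not measured, and its part in the rises was not tested.

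**Figure D1:**
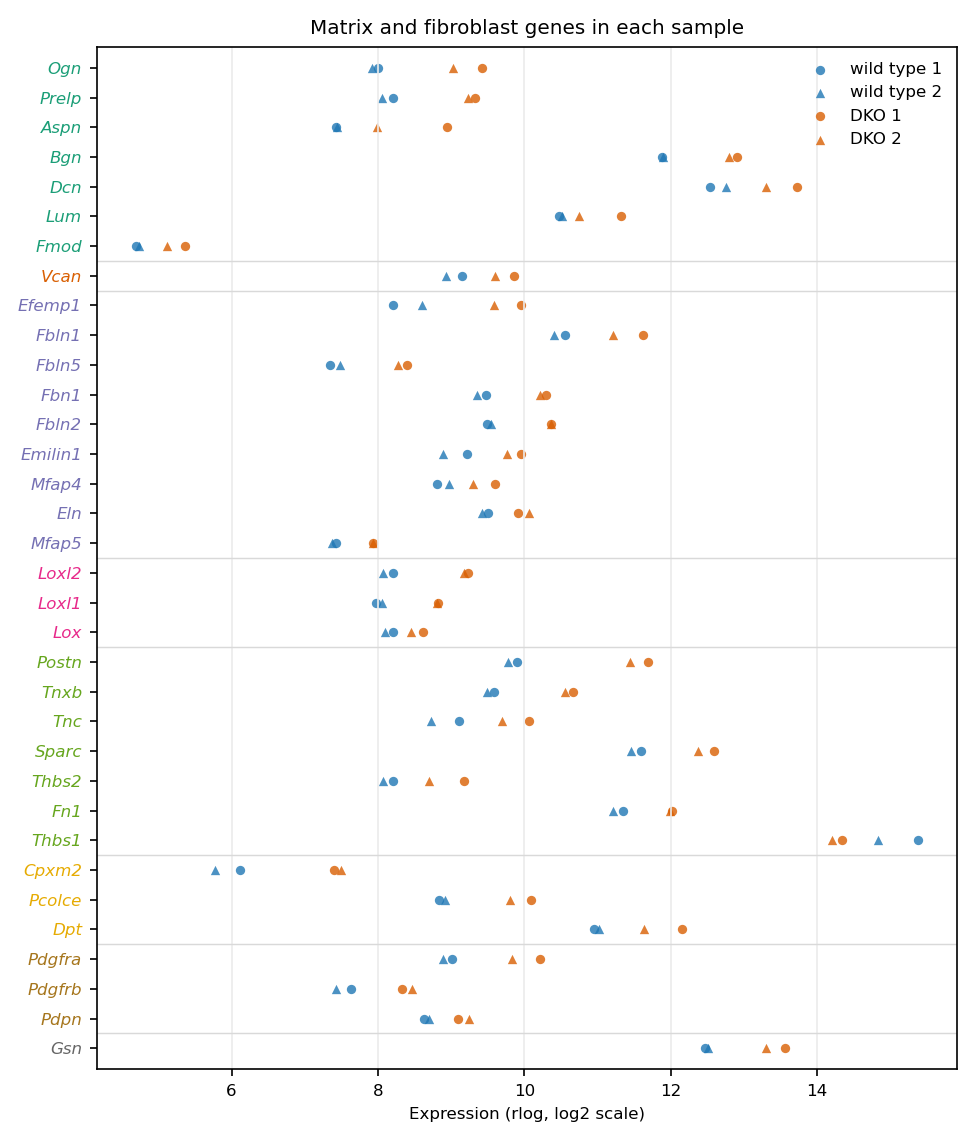
Expression (rlog, log2 scale) of the 34 genes in each sample, grouped by role, with wild-type samples in blue and DKO samples in orange. In 33 rows both orange symbols lie to the right of both blue ones. Thbs1, the gene with the highest values, has them the other way round.

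The 4 genes with the largest rises were Postn, Cpxm2, Efemp1 and Ogn. The 250 bases before an annotated start of each are shown because these genes moved furthest. The sequences are from RefSeq (GRCm38.p6), 5′ to 3′ on the strand of the gene, and capitals mark letters that match TATAAA (the TATA box), TGANTCA (the AP-1 motif) or GGAATG (the TEAD motif), searched on both strands.
Postn, chr3:54360857-54361106, plus strand: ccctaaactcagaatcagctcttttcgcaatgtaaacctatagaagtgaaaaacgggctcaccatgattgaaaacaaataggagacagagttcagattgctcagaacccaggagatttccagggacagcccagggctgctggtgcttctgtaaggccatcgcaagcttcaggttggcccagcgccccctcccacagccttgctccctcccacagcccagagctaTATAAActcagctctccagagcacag
Cpxm2, chr7:132154742-132154991, minus strand: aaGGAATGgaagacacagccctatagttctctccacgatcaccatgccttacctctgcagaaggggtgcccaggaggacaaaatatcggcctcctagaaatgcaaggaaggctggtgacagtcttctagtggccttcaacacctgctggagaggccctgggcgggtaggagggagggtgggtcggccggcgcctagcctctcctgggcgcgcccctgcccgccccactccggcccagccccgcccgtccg
Efemp1, chr11:28852955-28853204, plus strand: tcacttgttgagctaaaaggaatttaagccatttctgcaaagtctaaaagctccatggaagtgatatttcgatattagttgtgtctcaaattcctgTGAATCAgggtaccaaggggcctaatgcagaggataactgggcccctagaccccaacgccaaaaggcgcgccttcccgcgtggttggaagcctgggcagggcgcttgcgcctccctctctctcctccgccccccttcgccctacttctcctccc
Ogn, chr13:49607765-49608014, plus strand: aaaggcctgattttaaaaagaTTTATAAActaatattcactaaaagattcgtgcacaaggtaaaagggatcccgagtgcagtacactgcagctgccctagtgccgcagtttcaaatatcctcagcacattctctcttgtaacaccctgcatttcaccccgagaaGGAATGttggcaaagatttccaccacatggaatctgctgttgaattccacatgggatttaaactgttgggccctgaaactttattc
The Postn window holds TATAAA 26 to 21 bases before the start, and a further annotated start of Postn is not shown. TATAAA lay on the strand of the gene and began 40 to 20 bases before the start in 1.99% of 32851 RefSeq promoter windows and in 1 of the 29 windows of these genes, that of Postn. In Ogn, TATAAA lay 227 to 222 bases before the start, overlapping a copy on the other strand, and GGAATG 86 to 81 bases before it. Cpxm2 had GGAATG at 248 to 243 and Efemp1 TGANTCA at 154 to 148. RefSeq windows were matched for 23 of the 34 genes. Of their 29 windows 20.7% held TATAAA anywhere, against 12.4% of all windows, 6.9% held TGANTCA against 6.75%, and 6.9% held GGAATG against 12.6%. The CArG box, the motif of serum response factor, was in 0 of the 29 windows and in 1.47% of all. These matches describe the letters in the windows only.

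Among the adhesive and matricellular glycoproteins 6 of 7 rose. Postn (ENSMUSG00000027750, GRCm38 chromosome 3), which encodes periostin, a matricellular protein that binds collagen and is made by activated fibroblasts, had wild-type values of 9.90 and 9.78 and DKO values of 11.69 and 11.45. The groups did not overlap, and the rise of 1.73 (SE 0.0953, adjusted p = 5.67e-06) was a fold of 3.32. Tnxb, which encodes tenascin-X, a glycoprotein that stabilises collagen fibrils, was at 9.58 and 9.49 in wild type and at 10.67 and 10.56 in DKO, a rise of 1.08 (SE 0.0828, adjusted p = 2.02e-05). Both DKO samples were high, and the spread within each group was far smaller than the difference.

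The other rises in this class were smaller. Tnc, the tenascin of wounds and inflamed tissue, rose by 0.96, Sparc, which binds collagen and is also made by endothelium, by 0.95, and Thbs2 by 0.80. Fn1, which encodes fibronectin and is also made by macrophages, stood at 11.35 and 11.21 in wild type and at 12.02 and 11.99 in DKO, a rise of 0.73 (SE 0.0841, adjusted p = 0.000166).

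Thbs1 was the exception. It encodes thrombospondin-1, a matricellular protein that binds latent TGF-beta and is made by platelets, macrophages and stromal cells. Its wild-type values were 15.38 and 14.84, its DKO values were 14.34 and 14.20, and it fell by 0.84 on the log2 scale (SE 0.167, adjusted p = 0.00525). The groups did not overlap, although the wild-type samples differed from each other about as much as the lower of them differed from the higher DKO sample. Without wild-type replicate 1 the difference was -0.57 and did not pass (adjusted p = 0.057), and with quantile normalization it was -0.58 (adjusted p = 0.0916). Its relative Thbs2, in contrast, was at 8.20 and 8.07 in wild type and at 9.17 and 8.70 in DKO. The macrophage and monocyte markers were lower beside it, with falls in 4 of 5. This count was 1 without wild-type replicate 1 and 0 with no filter (4 at an unadjusted p under 0.05 in limma). The log2 of their summed level (the sum of 2 to the power of rlog) was 13.99 and 13.86 in wild type and 13.46 and 13.57 in DKO, none was listed at 0, and their part in the fall of Thbs1 was not tested.

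**Figure D2:**
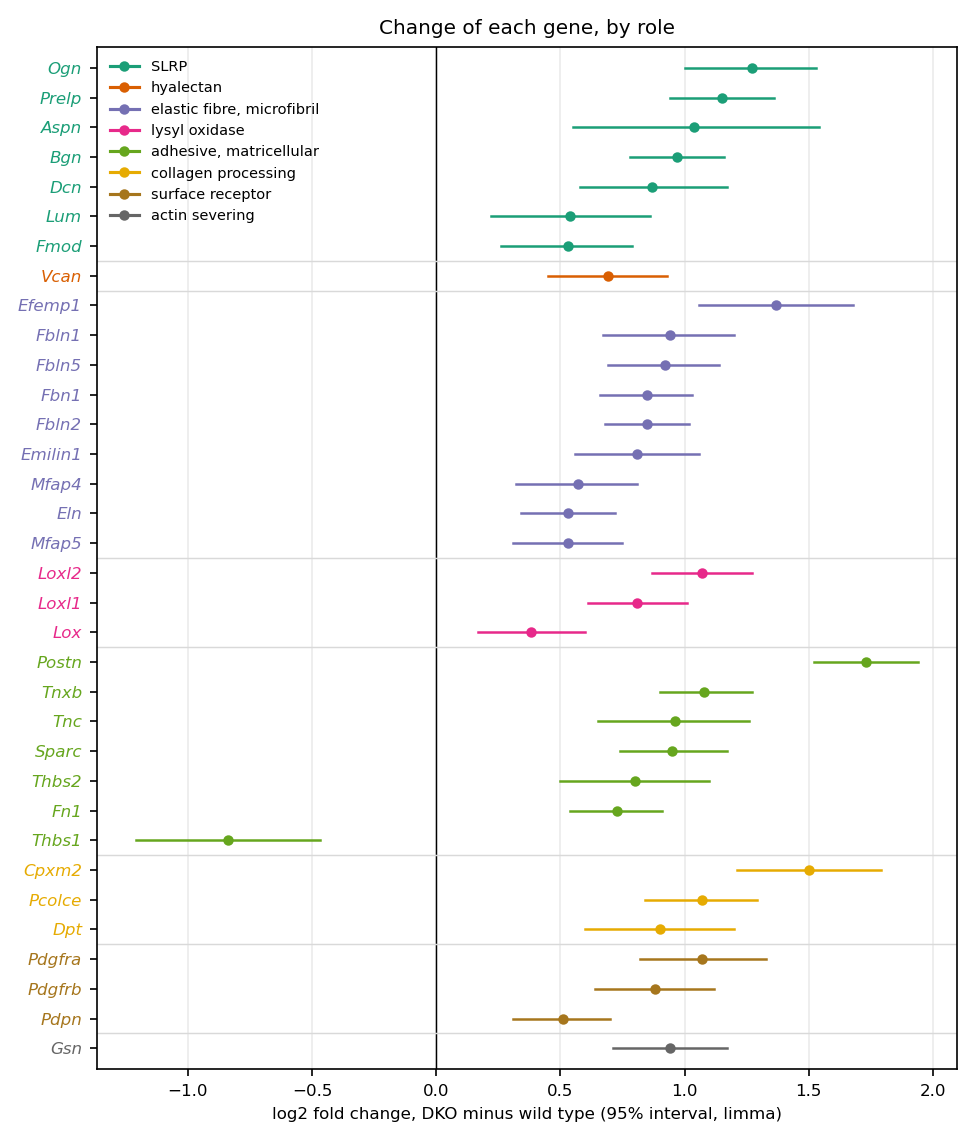
Log2 fold change (DKO minus wild type) of each gene with its 95% interval from limma, grouped by role. Intervals lie above 0 for 33 genes, from Lox at 0.38 to Postn at 1.73, and below 0 for Thbs1 at -0.84.

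All 7 small leucine-rich proteoglycans rose, with a median of 0.97. Ogn, which encodes osteoglycin, stood at 8.0 and 7.92 in wild type and at 9.42 and 9.03 in DKO (1.27, SE 0.122, adjusted p = 5.47e-05). Prelp, a proteoglycan that anchors basement membranes to connective tissue, was at 8.21 and 8.05 and then at 9.33 and 9.23 (1.15, SE 0.0947). In both the groups did not overlap, and the DKO samples lay further apart in Ogn (SD 0.275) than in Prelp (SD 0.068). Aspn, which encodes asporin, was at 7.42 and 7.44 in wild type but at 8.95 and 7.99 in DKO, a rise of 1.04 (SE 0.225, adjusted p = 0.00879). That rise leaned on DKO replicate 1: it was 0.56 without that sample (adjusted p = 0.00167), and with robust moderation the call was lost (adjusted p = 0.317). Bgn, which encodes biglycan, rose by 0.97 with an SE of 0.0866.

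The genes of this family lie in clusters. The fold changes of neighbours are given side by side below, and the differences between them were not tested. On chromosome 10 (GRCm38), Dcn (97479609 to 97518143) and Lum (97565128 to 97572703) lie 47.0 kb apart in a cluster of 4 coding genes. Dcn, which encodes decorin, the proteoglycan that binds the surface of type I collagen fibrils, was at 12.54 and 12.76 in wild type and at 13.73 and 13.31 in DKO (0.87, SE 0.135). Lum, which encodes lumican, was at 10.47 and 10.52 and then at 11.32 and 10.75 (0.54, SE 0.146, adjusted p = 0.0292), again with DKO replicate 1 the higher. Lum was at 0.25 without DKO replicate 1 (adjusted p = 0.0646) and at 0.83 without DKO replicate 2. Its call was also lost with robust moderation (adjusted p = 0.197) and with moderation that used no trend (adjusted p = 0.0616). The other members of that cluster, Kera and Epyc, had mean rlog values of 2.5 and 1.85 and were not tested.

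On chromosome 13 the order is Ecm2, Aspn, Omd and Ogn within 120 kb, where Aspn (49544443 to 49567565) and Ogn (49608046 to 49624501) rose by 1.04 and 1.27 and Ecm2 by 0.83, while Omd, at a mean of 0.47, was not tested. On chromosome 1, Prelp (133910304 to 133921414) lies beside Optc, 2.3 kb away, and 115.8 kb from Fmod (134037254 to 134048277). Prelp rose by 1.15, Optc by 0.61 and Fmod, which encodes fibromodulin, by 0.53. Fmod had the lowest values of the 34 genes, 4.69 and 4.73 in wild type and 5.36 and 5.11 in DKO, so that shrinkage weighs most on it, and its call was lost when wild-type replicate 1 was left out (0.51, adjusted p = 0.0583). The differences between neighbours were not tested.

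Vcan, which encodes versican, a large proteoglycan that binds hyaluronan and is also made by monocytes, stood at 9.15 and 8.93 in wild type and at 9.86 and 9.60 in DKO. It rose by 0.69 (SE 0.109, adjusted p = 0.0013).

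All 9 genes of elastic fibres and microfibrils rose, with a median of 0.85. Efemp1, which encodes fibulin-3, led them with values of 8.21 and 8.60 in wild type and 9.96 and 9.59 in DKO (1.37, SE 0.142, adjusted p = 8.7e-05). The other fibulins, which bridge elastin and microfibrils, rose by 0.94 (Fbln1), 0.92 (Fbln5) and 0.85 (Fbln2). Fbn1, which encodes fibrillin-1, the backbone of microfibrils, rose by 0.85, and Emilin1 by 0.81. The smallest rises were those of elastin itself (Eln, from 9.46 ± 0.0665 to 9.99 ± 0.106, SD, n = 2, a rise of 0.53) and of the microfibril-associated Mfap5 (0.53) and Mfap4 (0.57).

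Of the lysyl oxidases, the copper enzymes that cross-link collagen and elastin, Loxl2 rose most. Its values were 8.20 and 8.07 in wild type and 9.23 and 9.18 in DKO (1.07, SE 0.0915, adjusted p = 3e-05). Loxl1 rose by 0.81. Lox had the smallest rise of the 33, from 8.20 and 8.10 to 8.61 and 8.45 (0.38, SE 0.0983, adjusted p = 0.0224), and its call was lost when wild-type replicate 2 (0.33, adjusted p = 0.163) or DKO replicate 1 (0.30, adjusted p = 0.0823) was left out.

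The genes of collagen processing and fibril association rose as well. Cpxm2, which encodes a secreted carboxypeptidase-like protein, was at 6.11 and 5.77 in wild type and at 7.40 and 7.49 in DKO (1.5, SE 0.131, adjusted p = 3.13e-05). Pcolce, whose product speeds removal of the C-terminal propeptide of procollagen, was at 8.84 and 8.92 and then at 10.09 and 9.80 (1.07, SE 0.102, adjusted p = 5.41e-05). Dpt, which encodes dermatopontin, a protein bound to decorin, rose by 0.90.

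The receptors that mark fibroblasts and mural cells rose. Pdgfra, the platelet-derived growth factor receptor of fibroblasts, was at 9.01 and 8.89 in wild type and at 10.21 and 9.83 in DKO (1.07, SE 0.116, adjusted p = 0.000114). Pdgfrb, which pericytes also express, rose by 0.88, and Pdpn, a sialomucin of fibroblastic reticular cells and lymphatic endothelium, by 0.51. Gsn, which encodes the actin-severing protein gelsolin, rose by 0.94, from 12.49 ± 0.0295 to 13.43 ± 0.173 (SD, n = 2).

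**Figure D3:**
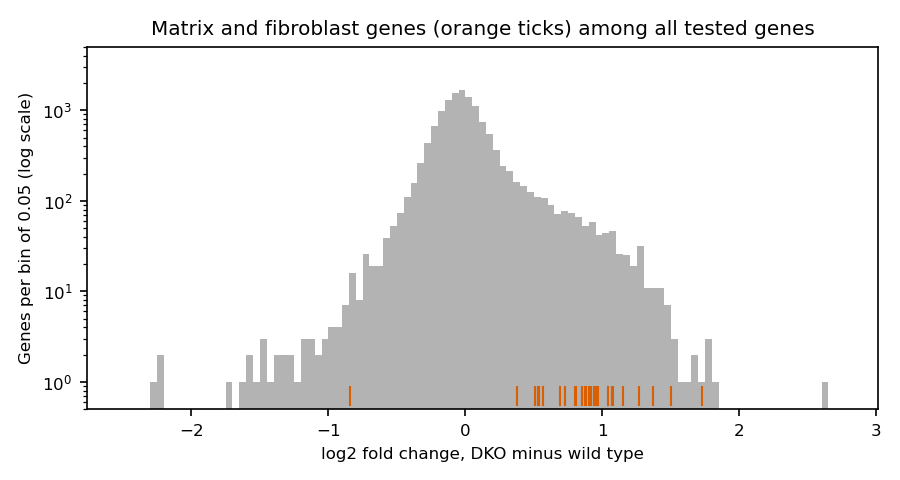
Distribution of log2 fold changes (DKO minus wild type) over the 13528 tested genes, with the count per bin on a log axis. Orange ticks mark the 34 matrix and fibroblast genes, whose median is 0.89 against -0.022 for all tested genes.

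Levels can be compared between genes only per length, here as rlog minus the log2 of the summed exon length in kb. On that scale Thbs1 had the highest mean in wild type (12.51), followed by Gsn (10.83), Dpt (10.20) and Dcn (10.10). In DKO the level per kb of Gsn was 11.77 and that of Thbs1 11.67, a gap smaller than the SD of Gsn (0.173) and close to that of Thbs1 (0.0999). Dpt followed at 11.10, Dcn at 10.98, Sparc at 10.56 and Bgn at 10.25. The lowest levels per kb were those of Fmod (2.98 in wild type and 3.51 in DKO) and Cpxm2 (3.73 and 5.24).

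The DKO samples differed from each other in these genes. DKO replicate 1 was above DKO replicate 2 in 29 of the 34 genes, against 49.1% of tested genes, and in all 7 small leucine-rich proteoglycans. In wild type replicate 1 was above replicate 2 in 20 of 34 (52.0% of tested genes), among them all 7 adhesive and matricellular genes, as in all 8 collagen chains named below. The mean rise over the 34 genes was 0.959 in DKO replicate 1 and 0.744 in DKO replicate 2, both measured from the wild-type mean. Without DKO replicate 1 the median log2 fold change was 0.78, and without DKO replicate 2 it was 1.03. In those fits 31 and 33 genes rose.

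Other stromal cells moved with these genes. All 5 smooth muscle markers rose, led by Myh11 (1.76), as did all 5 of pericytes, among them Cspg4 (1.03), and all 5 of blood endothelium, among them Kdr (1.55). Mesothelial markers rose in 4 of 4, with Upk3b at 1.21 and Msln at 1.13, and lymphatic markers in 3 of 3 tested, with Flt4 at 1.12 (Ccl21a was listed at 0 in every sample). The log2 of the summed level of the smooth muscle markers was 12.70 and 11.75 in wild type and 13.48 and 13.94 in DKO. That of the mesothelial markers was 6.44 and 7.03 against 7.97 and 7.42. The order of the DKO samples differed between lists: replicate 1 was the higher in 4 of 4 mesothelial markers, as in most matrix genes, and replicate 2 in 5 of 5 smooth muscle markers. That of the pericyte markers was 10.77 and 10.14 against 11.67 and 11.56, that of blood endothelium 11.39 and 11.19 against 12.15 and 12.26, and that of lymphatic endothelium 8.02 and 8.05 against 8.79 and 9.40. With no filter 0 smooth muscle, pericyte, lymphatic and mesothelial markers rose and 1 of blood endothelium did (5, 5, 3, 4 and 5 were higher at an unadjusted p under 0.05 in limma). Smooth muscle markers also lost all 5 calls with robust moderation (0 at an unadjusted p under 0.05). Of the mesothelial markers 2 rose with robust moderation, with quantile normalization and without wild-type replicate 1, and none reached the stricter minimum of 6. The part of these cells in the matrix rises was not tested.

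Neutrophil markers fell in 5 of 5, with a summed level of 15.45 and 15.48 in wild type and 14.44 and 13.87 in DKO. With no filter 0 fell (5 at an unadjusted p under 0.05 in limma). Markers of epithelium (0 of 5 called, median -0.03), of T cells (0 of 4, median -0.24) and of leukocytes as a whole (0 of 3, median -0.24) did not pass in limma. At an unadjusted p under 0.05, 1 epithelial gene was higher, and 3 T cell and 2 leukocyte genes were lower. Of the leukocyte genes 1 fell with the stricter minimum, with median centring, with robust moderation and with moderation that used no trend. Without DKO replicate 2, 3 T cell genes and 1 leukocyte gene fell. The epithelial sum was 13.24 and 13.34 in wild type and 13.34 and 13.24 in DKO.

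**Figure D4:**
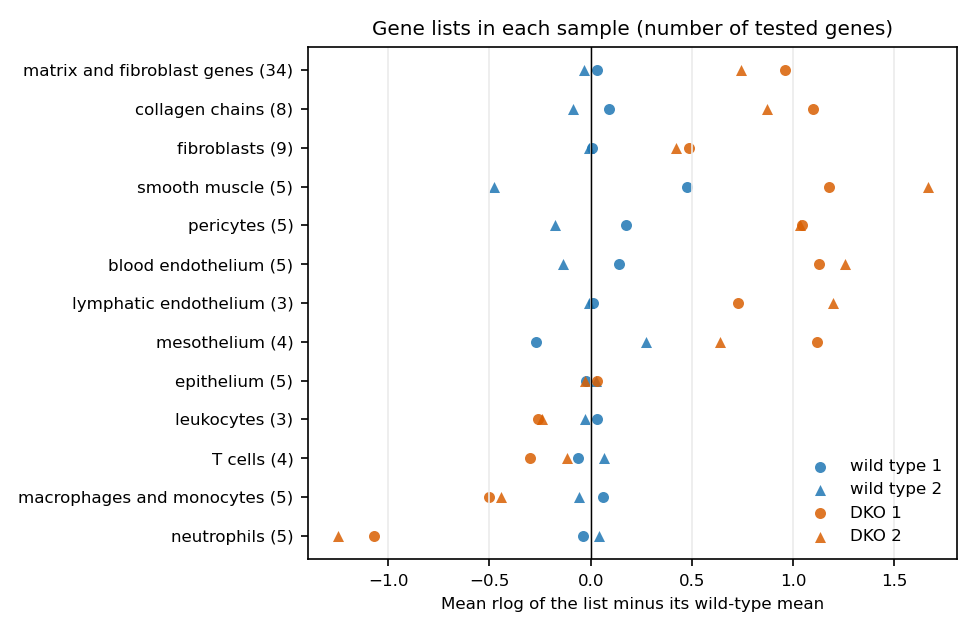
Mean rlog of each gene list minus its wild-type mean, for wild-type (blue) and DKO (orange) samples, with the number of tested genes in brackets. The matrix and fibroblast genes sit at 0.959 and 0.744 in DKO, the smooth muscle markers at 1.176 and 1.663, and the neutrophil markers at -1.068 and -1.25.

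The label of fibroblasts was checked against a list of 9 markers, of which 4 rose (6 at an unadjusted p under 0.05 in limma). With no filter 1 rose (4 at an unadjusted p under 0.05). The 4 that rose with the filter were Col1a1 (0.70), Col1a2 (0.89), Col3a1 (0.92) and Cd34 (1.05). The collagen genes encode the chains of the main fibrillar collagens, and endothelium shares Cd34. The transcription factor genes Prrx1 (0.14, adjusted p = 0.505) and Twist2 (0.32, adjusted p = 0.158) and the protease gene Fap (0.34, adjusted p = 0.108) had low values, at means of 3.86 to 5.03 in either group. Thy1, which mouse T cells also express, was at -0.12 and Pi16, a marker of adventitial fibroblasts, at -0.18 (adjusted p = 0.264), and neither passed. The matrix genes therefore rose beside 4 of 9 fibroblast markers, with a list median of 0.34. Col1a1, Col1a2 and Col3a1 are matrix genes themselves and also belong to the collagen chains used below. Among the remaining markers only Cd34 rose.

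The 34 genes were next set against collagen, the main fibre protein of connective tissue. All 8 chains of types I, III, V and VI used here rose, with a median of 0.98 (2 with no filter, and 8 at an unadjusted p under 0.05), and their mean went from 10.92 and 10.74 in wild type to 11.93 and 11.70 in DKO. Each gene was expressed relative to that mean in its own sample. Postn (0.75, SE 0.213, adjusted p = 0.000545) and Cpxm2 (0.52, SE 0.202, adjusted p = 0.0115) were above the chains, and 8 genes were below. These were Thbs1 (-1.83, SE 0.28, adjusted p = 1.88e-09), Lox (-0.60), Pdpn (-0.48), Fmod (-0.46), Eln (-0.46), Mfap5 (-0.46), Lum (-0.45) and Mfap4 (-0.42). Over all tested genes 0.237% were above the chains and 94.1% below, since a gene that does not move lies below a reference that rises. The other 24 did not pass, with intervals such as -0.47 to 0.44 for Bgn and -0.59 to 0.37 for Dcn, so that differences within those bounds cannot be seen here.

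The spread of the reference enters every gene alike, and the fit took it as known from 4 samples. It also gave genes of like level the same spread. These p-values can therefore be too small, or too large for a gene that varies with the chains from sample to sample. Of the 10 calls against collagen, 9 were lost without some single sample or with another reference, and Thbs1 alone was called below in every alternative run. Postn was lost without wild-type replicate 1 (0.71, adjusted p = 0.0655), and Lox without wild-type replicate 2 (-0.56, adjusted p = 0.0753). Cpxm2 was lost without wild-type replicate 2 or DKO replicate 2 (0.43 and 0.36). Each of the other 6 was lost without at least 1 single sample, with 1 to 5 genes below in those fits and 1 to 2 above. Against the collagen chains and fibroblast markers together, 11 genes were above and 2 below, and Tnc changed sign to 0.28 (adjusted p = 0.0353 in limma). That reference rose less, so every gene shifted up by the same amount. The median of the 34 went from -0.1 to 0.22 and that of all tested genes from -1.01 to -0.7. Of the 13528 tested genes 285 were then above, against 32 with the chains alone.

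**Figure D5:**
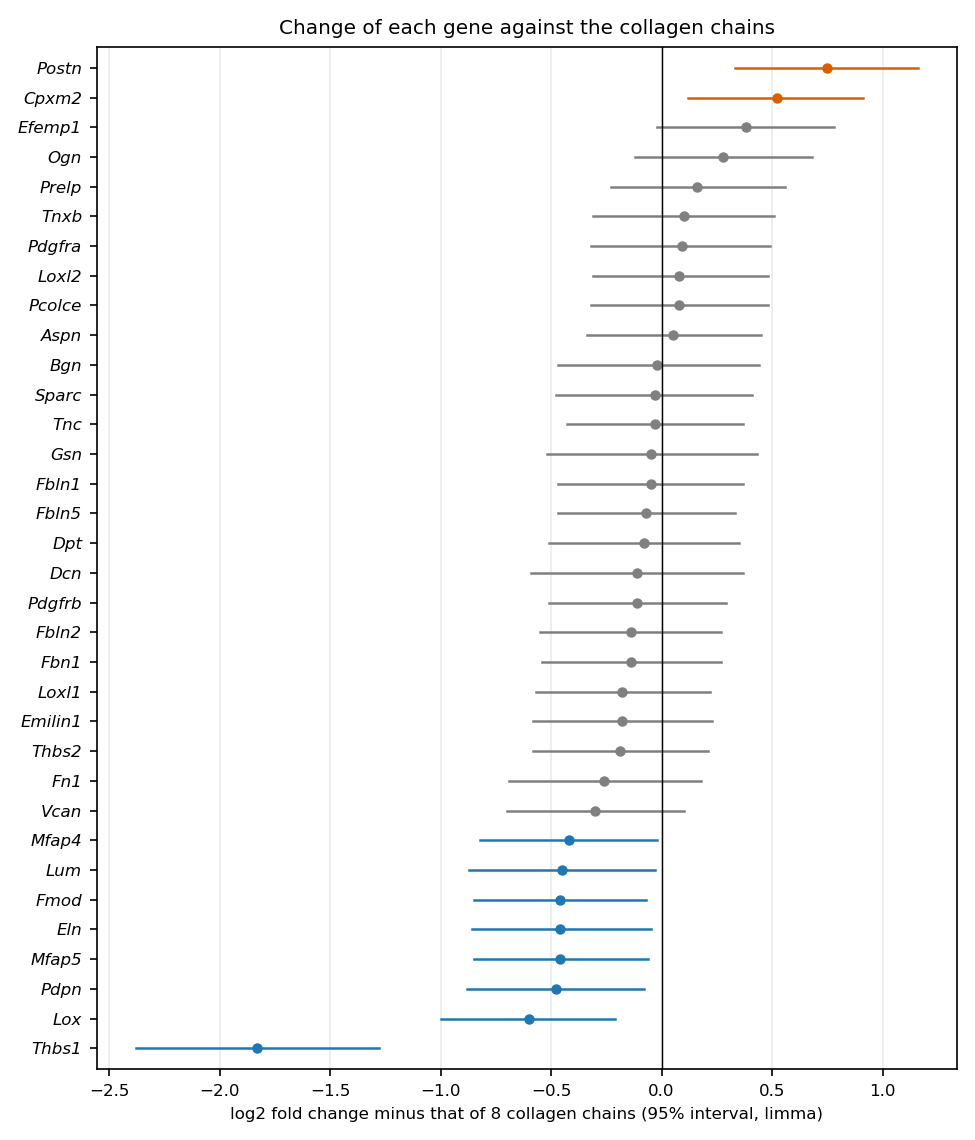
Log2 fold change of each gene minus that of the mean of 8 collagen chains, with 95% intervals from limma, ordered by value. Genes called above are orange (Postn at 0.75 and Cpxm2 at 0.52), the 8 called below are blue, and the 24 grey intervals include 0.

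A wider list of 71 other matrix glycoproteins and proteoglycans had 52 tested genes, of which 40 rose and 3 fell, with a median of 0.76. With no filter 12 rose and 0 fell (45 and 4 at an unadjusted p under 0.05 in limma). The smallest p belonged to Igfbp5, which encodes a growth factor binding protein held in the matrix (from 10.37 ± 0.00029 to 11.80 ± 0.00261, SD, n = 2, a rise of 1.43). Svep1, a large adhesive protein, rose by 1.17 and Ltbp4, which tethers latent TGF-beta to microfibrils, by 1.26. The 3 that fell, named after their values were seen, were Tgfbi (-0.63), which encodes an adhesive protein, Emilin2 (-0.49) and Spp1 (-0.47), which encodes osteopontin. Macrophages are known to make Tgfbi and Spp1.

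Enzymes that build the sugar side chains of proteoglycans mostly did not pass. Of 21 tested genes of side chain and hyaluronan synthesis 4 rose and 0 fell in limma (6 and 1 at an unadjusted p under 0.05), with a median of 0.07. The rises numbered 0 with no filter (10 at an unadjusted p under 0.05 in limma) and 2 with quantile normalization or without either wild-type sample. Those that rose were the hyaluronan synthases Has1 (from 8.10 ± 0.234 to 8.94 ± 0.392, SD, n = 2, a rise of 0.84) and Has2 (0.53), and the sulfotransferases Chst15 (0.53) and Ust (0.41). The 19 tested genes apart from the hyaluronan synthases had a median of 0.05.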

How the data were processed

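Messenger RNA of LPMCs was sequenced from stranded libraries, per the labels' protocols, in 2 samples per group. Replicates were numbered in accession order, pair no samples, and are not said to come from separate animals. The p-values therefore reflect only how these samples vary, which may be technical. The authors deposited log2 values, the rlog of DESeq2, per the name of the table. The submitters' processing notes list DESeq2, featureCounts of Subread 1.5.2, STAR 2.5.4a and BWA 0.7.14-r1136, then cutadapt 1.9.1, bcl2fastq 2.17.1.14 and the build GRCm38. The annotation release, the parameters and the strand setting of the counting are not stated there. The table has 2 further columns that match no labelled sample and were not used here. These columns may have entered the authors' rlog shrinkage, and so the values used. Counts and depth were not analysed here.

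Identifiers were matched to GENCODE M21 (GRCm38), 48144 of 48526 with a symbol. The 13528 genes whose rlog averaged 4 or more were fitted with limma 3.58.1 in R 4.3.3, with group as the only term and moderation with a mean-variance trend (8.9 prior and 2 residual degrees of freedom). Two-sided p-values were adjusted by the method of Benjamini and Hochberg over all tested genes. Python 3.11.15, pandas 2.3.3 and matplotlib 3.10.9 made tables and figures. For the comparison with collagen, the mean of 8 chains was subtracted in each sample before the same fit. On simulated data for the DKO against wild-type comparison (13528 genes), the fit recovered 44.8% of genes changed by 0.5, 98.5% of those changed by 1 and 0% of those changed by 0.25, and 5 of its 100 calls were false.

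The 34 genes, the lists and the tests were chosen with earlier results of these data known. Values in every sample are given for the 10 largest rises, for genes that fell and for pairs of neighbouring proteoglycan genes, and from each list up to 3 genes with the smallest p are named. Other genes with values in every sample (Thbs2, Fn1, Vcan, Lox and Igfbp7) and further named list genes, such as Ust and the remaining fibroblast markers, were chosen after their values were seen. Of the 34 genes 14 share exon bases with another gene, and in 2 of them, Aspn (7 bases with Cenpp) and Mfap4 (89 bases with Mapk7), the partner, on the other strand, reached the minimum for testing. Alternatives were other filters, median centring, quantile normalization, other variance models, another collagen reference and leaving out each sample in turn.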

Additional observations from a re-analysis of the deposited data

How the results depend on the processing

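Of 339 repeats of the 34 fold changes under the alternatives, 306 kept their call and 33 lost it, 24 of these with no filter, and the direction held in each. Apart from no filter, calls were lost for 5 genes (Aspn, Fmod, Lox, Lum and Thbs1). With no filter 10 genes rose and 0 fell, and the prior degrees of freedom were 2.01 against 8.9. With quantile normalization 33 rose and 0 fell, and without wild-type replicate 1 32 rose and 0 fell (1 fell at an unadjusted p under 0.05 in limma in each of these fits). Over the fits without single samples 31 to 33 rose and 0 to 1 fell. Those fits assume that the sample left alone in its group varies as the other group does. Against the collagen chains 1 to 2 genes were above and 1 to 5 below in those fits, 1 was above with quantile normalization, and 11 were above and 2 below with fibroblast markers added to the reference, where Tnc turned to 0.28. Adding the fibroblast markers shifted every gene up by the same amount, since that reference rose less. Counts of the other gene lists moved by over 1.5 times in 26 of 278 repeats (lists with a tested gene). No paired analysis was possible because the labels give no replicate numbers. Depth is unknown, so its limits cannot be stated, and rlog understates folds of low genes such as Fmod.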

Other observations

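Some groups within the wider matrix list, looked up after its values were seen, moved together and others did not. All 5 insulin-like growth factor binding proteins tested rose, with a median log2 fold change of 1.03: Igfbp5 (1.43), Igfbp3 (1.34), Igfbp7 (1.03), Igfbp4 (0.87) and Igfbp6 (0.54). Igfbp7, which vessels also express, was at 11.06 and 11.03 in wild type and at 12.07 and 12.09 in DKO. Of the latent TGF-beta binding proteins, which hold the growth factor in the matrix, Ltbp4 (1.26), Ltbp1 (1.2) and Ltbp3 (0.66) rose, and Ltbp2 did not pass (0.28, adjusted p = 0.127 in limma).

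Of the 5 CCN matricellular proteins 3 rose. Ccn2, which encodes connective tissue growth factor, rose by 0.89, Ccn1 by 0.79 and Ccn3 by 0.55. Ccn4 (0.07, adjusted p = 0.782) and Ccn5 (0.23, adjusted p = 0.336) did not pass in limma, and the difference between members was not tested.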
